A study of Arabidopsis thaliana with 18 samples.

Results

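The heat shock protein 70 (HSP70) chaperone family of Arabidopsis thaliana was followed through 10 of the 37336 genes in the count table, in germinating seeds of the wild type and of 8 transcription factor mutants. The genes were taken by name: 5 that encode cytosolic chaperones (HSC70-1, HSC70-2, HSC70-3, HSP70-4 and HSP70-5), 3 that encode binding proteins of the endoplasmic reticulum (BIP1, BIP2 and BIP3), the HSP110-like HSP70-15 and the chloroplast CPHSC70-1. The list was made with earlier results of these data known. HSC70-3 was chosen by its measured level, which was low in every mutant. Its values against the wild type are therefore a description and carry no test. All 10 genes were among the 19100 that passed the filter on low counts.

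RNA was sequenced from seeds after 48 h in the dark at 4 °C on MS medium followed by 24 h of continuous light at 22 °C. The wild type was Col-0, and the mutants were homozygous T-DNA insertion lines, named athb15 and athb25, lmi1, hat2, smb, vnd2, obp1 and wrky14 after the disrupted transcription factor gene. Each mutant was a single insertion line, and each of the 9 genotypes had 2 libraries, 18 in all, made from whole seeds pooled over several parent plants. Whether the 2 libraries of a genotype came from separate pools of seed is not stated, so the p-values measure the spread between these libraries, which may be technical.

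HSP70 proteins bind exposed hydrophobic stretches of unfolded polypeptides and release them in a cycle driven by ATP, in which J-domain proteins stimulate hydrolysis and exchange factors release the nucleotide. Constitutive members fold newly made proteins and help precursors reach organelles, heat-inducible members are controlled by heat shock factors, and BiP performs these tasks in the lumen of the endoplasmic reticulum and rises in the unfolded protein response. In seeds, heat shock proteins accumulate during maturation and decline as germination proceeds.

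Several of these genes are near copies, and the sequences below show how alike their coding stretches are. BIP1 (AT5G28540, chr5:10540123-10543558, minus strand, TAIR10) and BIP2 (AT5G42020, chr5:16807342-16810693, minus strand) were 97.2% identical over their aligned coding bases, with one run of 323 identical bases. The 75-base coding stretch in which they differed most is given first, with its 6 differing bases in capitals, at chr5:10542973-10543047 and chr5:16810057-16810131. HSC70-1 (AT5G02500, chr5:553745-556623, minus strand) and HSC70-2 (AT5G02490, chr5:550035-552827, minus strand) lie 917 bases apart, and their 2 most alike 75-base stretches, at chr5:554898-554972 and chr5:551145-551219, differed at 2 bases. HSC70-1 and HSC70-3 (AT3G09440, chr3:2902355-2905947, minus strand) differed at 3 bases in their most alike stretch, at chr5:556230-556304 and chr3:2905528-2905602. All 6 stretches are written 5′ to 3′ along the coding strand from the reference genome, with capitals at the bases that differ within the pair.
BIP1: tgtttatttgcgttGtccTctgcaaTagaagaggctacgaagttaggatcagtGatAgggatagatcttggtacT
BIP2: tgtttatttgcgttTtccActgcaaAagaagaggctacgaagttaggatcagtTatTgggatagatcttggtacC
HSC70-1, beside HSC70-2: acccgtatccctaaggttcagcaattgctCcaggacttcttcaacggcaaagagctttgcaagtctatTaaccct
HSC70-2: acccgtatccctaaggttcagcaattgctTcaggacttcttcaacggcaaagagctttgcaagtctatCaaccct
HSC70-1, beside HSC70-3: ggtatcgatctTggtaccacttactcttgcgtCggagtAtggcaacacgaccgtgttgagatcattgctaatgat
HSC70-3: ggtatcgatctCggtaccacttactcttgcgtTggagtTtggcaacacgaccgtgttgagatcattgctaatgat

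Windows of annotated transcript were taken within exons only, so those across splice junctions were not searched, and the read length is not given in the sources used here. Of the 75-base windows, 14.4% of those in BIP1 were found unchanged in BIP2 and 15.1% of those in BIP2 in BIP1. HSP70-15 (AT1G79920, chr1:30059302-30062824, minus strand) shared 2.62% of its 75-base windows with the neighbouring HSP70-14 (AT1G79930), which lies 623 bases away. The other 7 genes had no 75-base window in common with any other gene, and of their 50-base windows only 7 of HSC70-3 were found elsewhere, in AT1G56410. The split of counts between BIP1 and BIP2 is therefore uncertain, whereas HSC70-1 and HSC70-2 shared no window despite a coding identity of 87.8%.

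The 250 bases upstream of the annotated starts were searched on both strands for the core pair of the heat shock element (GAANNTTC or TTCNNGAA), the endoplasmic reticulum stress response element (CCAAT followed by CACG with 10 bases between them) and the G-box (CACGTG). BIP3 (AT1G09080, chr1:2929217-2931850, minus strand) was the only one of the 10 genes with the stress response element, which occurred in 0.567% of the 37049 upstream windows of the genome. Its window, chr1:2931851-2932100 on the minus strand of TAIR10, is shown with its 2 matches in capitals, both on the strand opposite to the gene.
BIP3 upstream: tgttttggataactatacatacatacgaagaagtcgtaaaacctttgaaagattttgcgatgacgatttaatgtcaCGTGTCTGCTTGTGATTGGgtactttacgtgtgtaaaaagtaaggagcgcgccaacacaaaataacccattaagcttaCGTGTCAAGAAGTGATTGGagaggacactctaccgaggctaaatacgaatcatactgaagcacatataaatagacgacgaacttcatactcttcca
A G-box overlapped the first of these matches, and HSC70-1 held the other G-box found, against 5.46% of all windows. The heat shock element core pair was found in 0 of the 10 windows and in 16.3% of all windows. A match describes letters in a window, and the data did not measure binding.

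Library totals ranged from 18146206 to 33111743 counts. The 10 marker genes of germinating seeds, which cover storage reserves, reserve breakdown, the growing embryo and the endosperm, had counts in every library. The targeted transcription factor gene fell at an adjusted p under 0.01 in 5 of the 8 lines, by log2 fold changes of -3.31 to -1.02. In vnd2, 8 and 7 counts of VND2 stood beside 13 and 11 in Col-0, which did not pass the test. OBP1 lay 0.55 above Col-0 on the log2 scale in its own line (adjusted p = 0.0262, edgeR). The line named for WRKY14 had 313 and 277 counts of that gene, and Col-0 had 6 and 9. Results from these 2 lines are therefore given as those of the libraries labelled obp1 and wrky14.

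Levels of different genes were compared as CPM, counts per 1000000 on library sizes scaled by trimmed mean of M-values, per kb of exon. HSC70-1, the main constitutive cytosolic chaperone, had a median of 2678 CPM per kb over the 18 libraries and made up 71.6% to 76.3% of the family total. CPHSC70-1 (AT4G24280, chr4:12589810-12593800, plus strand), which serves protein import and folding in the chloroplast stroma, followed with a median of 366 CPM per kb. BIP2 at 164, BIP1 at 163, HSC70-3 at 96.2 and HSP70-15 at 68.6 CPM per kb formed the middle of the family. HSP70-4 (AT3G12580, chr3:3991117-3993886, minus strand), a cytosolic member known to be induced by heat, had 28.7 CPM per kb and HSC70-2 had 13.0 CPM per kb. HSP70-5 (AT1G16030, chr1:5501966-5504535, minus strand, with 1 coding exon), another heat-inducible cytosolic member, had 4.43 CPM per kb. BIP3, the stress-induced form of BiP, was lowest at 0.284 CPM per kb, with 3 to 62 counts per library. The median levels of the most and least abundant genes were thus separated by several orders of magnitude in the plot of levels per exon length.

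**Figure D1:**
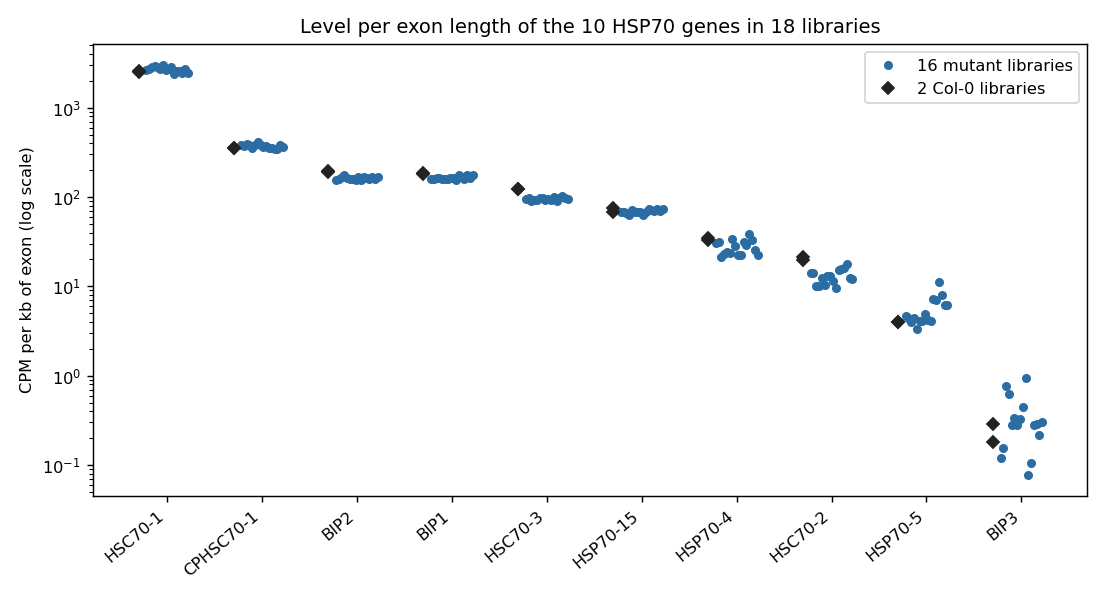
Level of each of the 10 HSP70 genes in CPM per kb of exon (vertical axis, log scale), with 1 point per library, for the 2 Col-0 libraries (black diamonds) and the 16 mutant libraries (blue circles). HSC70-1 stands above all other members in every library and BIP3 below them. The Col-0 diamonds of BIP1, BIP2 and HSC70-2 lie above all mutant points. Those of HSC70-3 do too, and this gene was chosen by its low level in the mutants.

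HSC70-3, a cytosolic chaperone of the constitutive class, was at 402 and 398 CPM in Col-0. In the mutants it was at 308 and 313 CPM in athb15, 288 and 297 in athb25, 297 and 315 in hat2, and 311 and 301 in lmi1. It was at 304 and 301 CPM in the libraries labelled obp1, 320 and 289 in smb, 312 and 329 in vnd2, and 312 and 309 in those labelled wrky14. The 16 mutant libraries thus lay in a narrow band below both Col-0 libraries, at genotype means of 73.2% of the Col-0 mean in athb25 to 80.1% in vnd2. The log2 differences from Col-0 were -0.45 to -0.32, with standard errors of 0.0613 to 0.0615. These values chose the gene. In seeds sampled whole, fewer cells of a type that carries a transcript and less of that transcript per cell cannot be told apart.

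The choice of HSC70-3 used its level in every mutant, so differences among the mutants were not tested for it either. The highest and lowest mutants were 0.13 apart on the log2 scale, and the pooled standard deviation between libraries of a genotype was 0.0472. In the order of genotype means, 6 of the 8 neighbouring pairs overlapped in their libraries. The exceptions were athb25, whose libraries lay just below the next genotype, and Col-0, which lay above vnd2.

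A second gene lies across HSC70-3. The protein-coding AT3G09430 (chr3:2901199-2903217) is on the opposite strand and overlaps 609 exon bases, 18.9% of the exon length of HSC70-3. The libraries were stranded, but the strand setting of the counting is not given in the sources used here. AT3G09430 had 77 to 159 counts per library, 0.886% to 1.73% of the HSC70-3 count, and its log2 differences from Col-0 ran from -0.31 to 0.28 with adjusted p values of 0.398 to 0.985. A snoRNA gene in an intron, AT3G02205, had 0 to 2 counts. The 3 genes whose log2 CPM followed HSC70-3 most closely over the 18 libraries were ABCI20 (r = 0.8485), AT1G05135 and AT5G54830 (both r = 0.8288), given as a description with no test.

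The other 9 genes were tested against Col-0 in each mutant, with edgeR's quasi-likelihood test and Benjamini-Hochberg adjustment over all 19100 genes at a threshold of 0.01. Of the 72 tests, 13 passed (18.1%), 11 lower and 2 higher, against 1.86% of all 152800 tests of genes in mutants (0.956% lower and 0.904% higher). The genes were chosen with earlier results of these data known, so these shares are a description and do not measure an enrichment. Over all genes the share called against Col-0 was 0.147% in athb15, 0.66% in hat2, 1.1% in lmi1, 1.16% where labelled wrky14, 1.62% in athb25, 2.15% in smb, 3.92% where labelled obp1 and 4.13% in vnd2. The 13 calls fell on 3 genes, HSC70-2, HSP70-4 and HSP70-5. The other 6 genes passed in no mutant, as did 90.7% of all genes. The 8 comparisons share the same 2 Col-0 libraries, and leaving out Col-0 replicate 1 or replicate 2 reduced the 13 calls to 7 or 8. With the libraries labelled obp1 and wrky14 left out of the fit, 10 of 54 tests passed, against 1.38% over all genes.

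**Figure D2:**
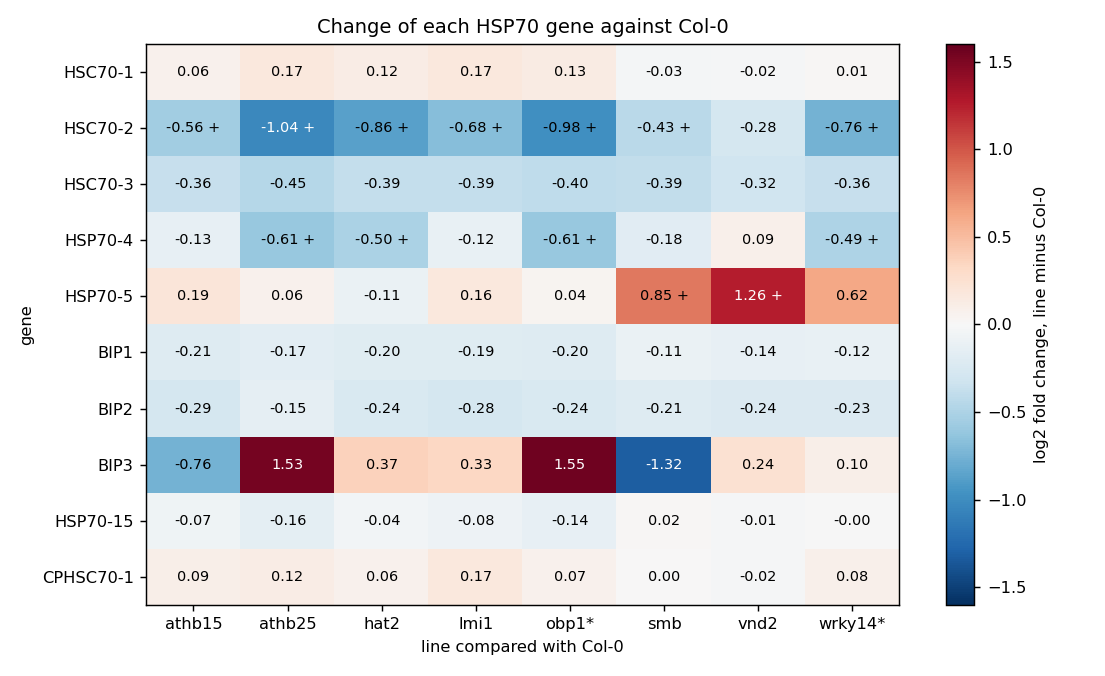
Log2 fold change of each gene (rows) in each mutant line against Col-0 (columns), coloured from blue (lower) to red (higher); a plus sign marks an adjusted p under 0.01 and an asterisk the 2 lines in which the targeted gene was not lower. HSC70-2 was called lower in 7 of the 8 lines and HSP70-4 in 4, HSP70-5 was called higher in 2, and the values of HSC70-3 were not tested.

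HSC70-2, a less abundant cytosolic chaperone and the chromosomal neighbour of HSC70-1, fell in 7 of the 8 mutants. Only 0.0262% of all genes were called lower in 7 or 8 mutants. Its level was 53.6 and 49.6 CPM in Col-0 (51.6 ± 2.79, SD, n = 2). It was 25.2 and 25.1 CPM in athb25, 28.3 and 24.0 in the libraries labelled obp1, 30.6 and 26.0 in hat2, and 30.8 and 30.1 in those labelled wrky14. It was 32.2 and 32.2 CPM in lmi1, 34.6 and 35.3 in athb15, 38.2 and 38.4 in smb, and 40.4 and 44.4 in vnd2. All 16 mutant libraries were below both Col-0 libraries, a separation also seen for BIP1 and BIP2 and, in the lower direction, for 2.04% of all genes. HSC70-3 had it too, but that gene was chosen by its low level in the mutants. Along the order of means, athb25 overlapped with obp1, obp1 with hat2 and hat2 with wrky14, and no other neighbouring genotypes overlapped.

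The fall of HSC70-2 was deepest in athb25, with a log2 fold change of -1.04 (SE 0.0849, adjusted p = 1.11e-06, edgeR). The next were -0.98 in obp1 as labelled (adjusted p = 3.17e-06), -0.86 in hat2 (8.53e-06), -0.76 in those labelled wrky14 (3.64e-05) and -0.68 in lmi1 (0.00011). These 5 calls held in every fit with 1 library of either genotype left out. The falls of -0.56 in athb15 (adjusted p = 0.00267) and -0.43 in smb (0.0038) each lost the call whichever of their own or the Col-0 libraries was left out, with adjusted p values of 0.0127 to 0.0844 and 0.0144 to 0.0689. In vnd2 the difference was -0.28 (adjusted p = 0.035), which passed without the filter on low counts (0.00787).

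The mutants also differed from each other in HSC70-2 (adjusted p = 1.73e-05, edgeR). This test compares no Col-0 value, although the Col-0 libraries were part of the fit. Against the mean of the other 7 mutants, it was lower in athb25 (-0.39, adjusted p = 0.00137) and obp1 as labelled (-0.32, 0.00315), and higher in smb (0.31, 0.00759) and vnd2 (0.48, 2.89e-05). Equality of the 8 mutants was rejected for 4 of the 9 genes tested (44.4%), HSC70-2, HSP70-4, HSP70-5 and BIP3, against 11.4% of all genes. The same 4 genes passed without the vnd2 libraries and without those labelled obp1 and wrky14. Of the 72 tests of a single mutant against the other 7, 12 passed, 7 higher and 5 lower, against 2.48% over all genes. As the genes were chosen with earlier results known, these shares too are a description only. For the lines with such calls, the share over all genes was 1.27% in hat2, 1.59% in smb, 2.97% in athb25, 5.9% where labelled obp1 and 7.5% in vnd2.

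**Figure D3:**
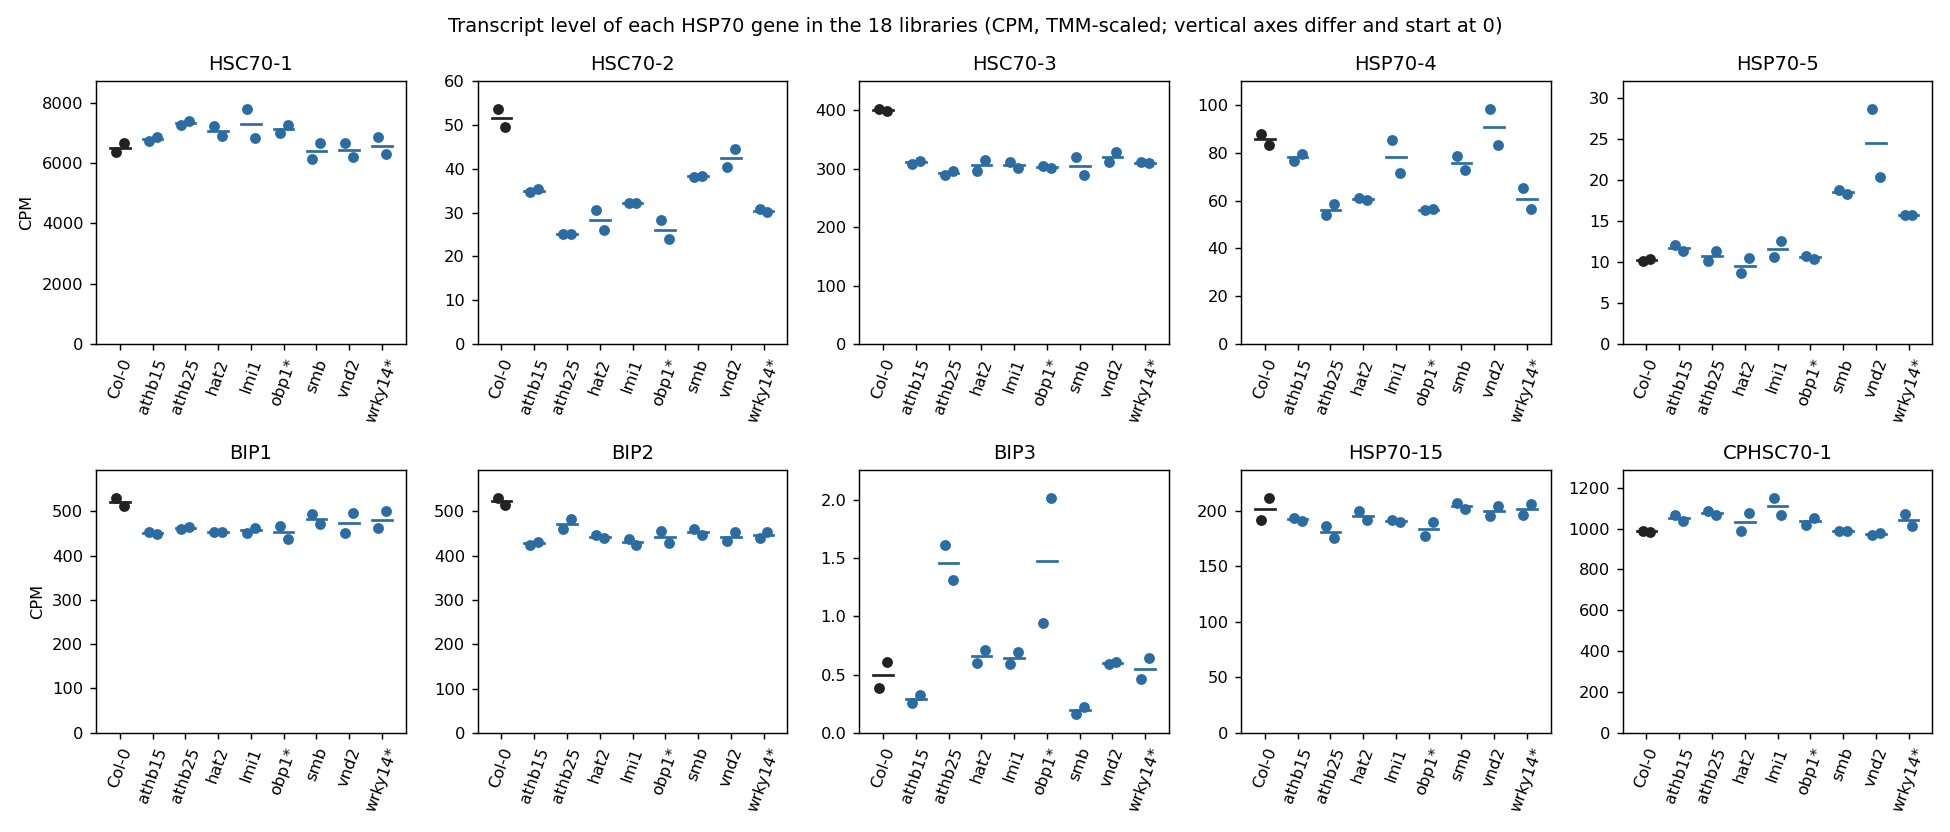
CPM of each of the 10 genes by genotype, with 1 point per library and a line at the mean of the 2 libraries; each panel has its own vertical axis from 0, Col-0 is black, and an asterisk marks the lines in which the targeted gene was not lower. HSC70-2 spreads between 24.0 and 44.4 CPM over the mutants, whereas HSC70-3 stays between 288 and 329 CPM.

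HSP70-4, whose protein assists refolding after heat, fell in 4 mutants. It was at 87.9 and 83.4 CPM in Col-0 (85.6 ± 3.22, SD, n = 2), 53.8 and 58.5 in athb25, 55.9 and 56.3 in the libraries labelled obp1, 60.9 and 60.1 in hat2, and 65.1 and 56.6 in those labelled wrky14. The other mutants reached 76.7 and 79.7 CPM in athb15, 85.4 and 71.5 in lmi1, 78.7 and 72.9 in smb, and 98.2 and 83.4 in vnd2. The first 4 lines therefore lay below every other library, and lmi1 and vnd2 overlapped with Col-0.

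The log2 fold changes of HSP70-4 that passed were -0.61 in athb25 (SE 0.0905, adjusted p = 0.000883, edgeR), -0.61 in the libraries labelled obp1 (0.000345), -0.50 in hat2 (0.00548) and -0.49 in those labelled wrky14 (0.00426). Only 0.351% of all genes were called lower in 4 or more mutants. The call in hat2 was lost whichever of its own or the Col-0 libraries was left out (adjusted p = 0.025 to 0.0957). The call in athb25 was lost without Col-0 replicate 1 (0.0237) or athb25 replicate 1 (0.0284), and that of the libraries labelled obp1 without their replicate 1 (0.0102). The call in those labelled wrky14 was lost without Col-0 replicate 1 (0.0751), Col-0 replicate 2 (0.0243) or their own replicate 2 (0.104).

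Among the 8 mutants HSP70-4 differed (adjusted p = 3.5e-05), being higher in vnd2 than in the mean of the other 7 (0.46, 7.52e-05) and lower in athb25 (-0.33, 0.00655) and the libraries labelled obp1 (-0.33, 0.00386). Across the 16 mutant libraries the log2 CPM of HSP70-4 and HSC70-2 had a Pearson's r of 0.853. This is a description over libraries that share genotypes in pairs.

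HSP70-5 went the other way. It was at 10.2 and 10.4 CPM in Col-0, at 28.6 and 20.3 in vnd2 and at 18.8 and 18.3 in smb. Both libraries labelled wrky14 had 15.8 CPM, and the remaining 5 mutants had 8.62 to 12.6. The vnd2 and smb libraries and those labelled wrky14 thus lay above all others, without overlap between the 3 lines. The rise passed the test in vnd2, by 1.26 on the log2 scale (SE 0.133, adjusted p = 4.76e-06, edgeR), and in smb, by 0.85 (SE 0.137, 0.000837). The value in the libraries labelled wrky14 was 0.62 (SE 0.137, 0.0169). It passed with DESeq2 (0.00587), in a model of the 4 libraries alone (0.00293) and without the filter on low counts (2.72e-06). HSP70-5 itself passed that filter, and the fit without it gave p values of another order, as stated at the end. The call in smb missed the threshold without Col-0 replicate 1 (adjusted p = 0.0122), Col-0 replicate 2 (0.0146) or smb replicate 2 (0.0109), while that in vnd2 held in every such fit.

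The mutants differed in HSP70-5 (adjusted p = 1.83e-06), which was higher in vnd2 (1.00, 2.99e-07) and smb (0.53, 0.00303) and lower in hat2 (-0.56, 0.00462) than in the mean of the other 7. The summed transcripts of 5 seed storage reserve genes moved with it. Their summed level was 1467 and 1763 CPM in Col-0, 6074 and 10778 in vnd2, 4001 and 4450 in smb, 2506 and 3259 where labelled wrky14, and 731 and 793 in hat2. In the other 4 lines it ran from 1391 to 2438 CPM. Most of the sum came from CRA1 and CRU3, with means of 1004 and 461 CPM in Col-0. The reserve gene SESA1 was not called in smb (log2 fold change 0.23, adjusted p = 0.576, edgeR). Of the 10 marker genes of germinating seeds, 6 were called higher in vnd2 and 4 in smb, against 1.97% and 0.618% of all genes. In hat2, 4 were called lower, against 0.267%, and where labelled obp1 1 was called higher, against 2.51%. The calls in vnd2 include EXPA1, the marker of the growing embryo (adjusted p = 0.00318, edgeR). No marker was at 0 in any library. The part of these markers in the differences of HSP70-5 was not tested. Without the vnd2 libraries, the remaining mutants still differed in HSP70-5 (adjusted p = 1.13e-05).

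**Figure D4:**
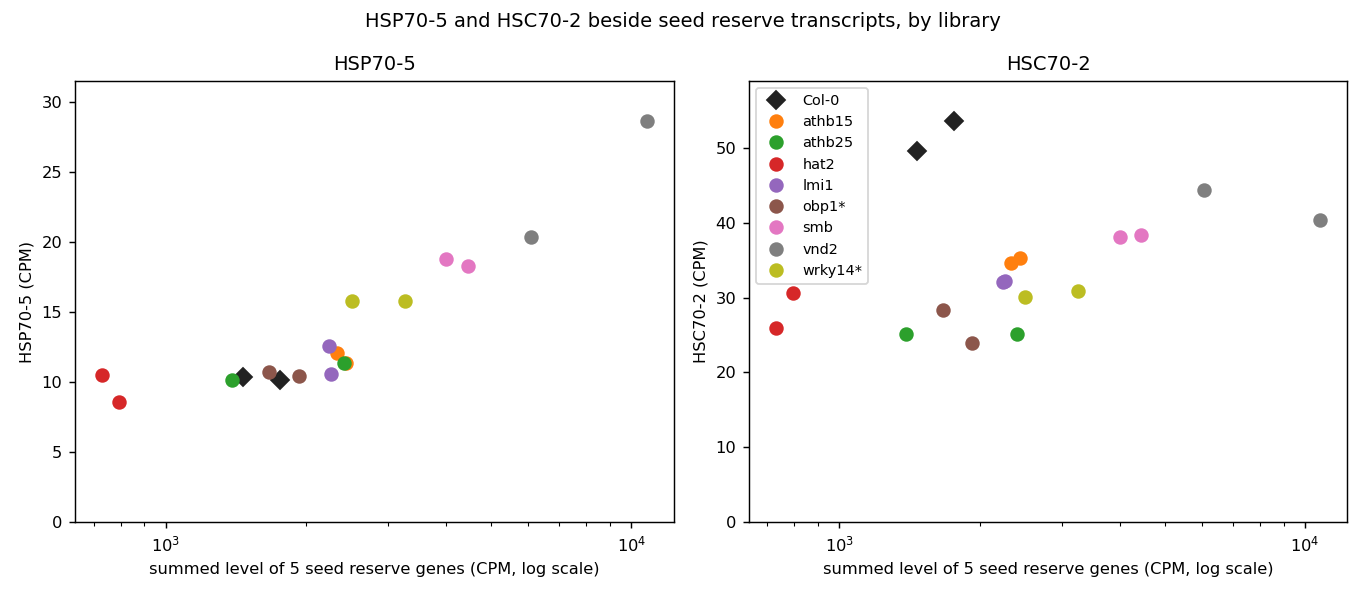
Level of HSP70-5 (left) and HSC70-2 (right) in CPM against the summed CPM of 5 seed reserve genes (horizontal axis, log scale), with 1 point per library coloured by genotype and Col-0 as black diamonds; an asterisk marks the lines in which the targeted gene was not lower. The 2 vnd2 libraries lie at 6074 and 10778 CPM of reserve transcripts with 20.3 and 28.6 CPM of HSP70-5. For HSC70-2 the Col-0 libraries stand above all mutants, and their reserve level lies within the mutants' range. A link between reserve level and either gene was not tested.

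The genes closest to HSP70-5 in log2 CPM over the 18 libraries, named after their values were seen, were HSP70T-2 (r = 0.9755), HSP101 (r = 0.9632) and HSP17.6A (r = 0.9594). HSP101 encodes a disaggregase that works with HSP70, and HSP17.6A a small heat shock protein. HSP70T-2 (AT2G32120), a truncated HSP70, rose in vnd2 by 1.75 (adjusted p = 3.44e-05, edgeR) and in smb by 1.30 (0.00185).

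BIP1 and BIP2 gave nearly all of the BiP transcript and lay slightly lower in the mutants without passing the test. BIP1 was at 530 and 511 CPM in Col-0 and between 437 and 500 CPM in the mutants. BIP2 was at 530 and 514 CPM in Col-0 and between 424 and 483 CPM in the mutants. For both genes every mutant library was below both Col-0 libraries, yet no difference passed. The log2 differences were -0.21 to -0.11 for BIP1 (adjusted p 0.0496 to 0.503, edgeR) and -0.29 to -0.15 for BIP2 (0.012 to 0.145). At an unadjusted p under 0.05 there were 6 of 8 differences for BIP1 and 8 of 8 for BIP2. DESeq2 called 0 and 5 of them at an adjusted p under 0.01. No share over all genes is given for these counts. The 8 comparisons use the same Col-0 libraries, so they are not separate signs of a fall.

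Since reads can move between these copies, their counts were also added. The sum was 1043 ± 24.5 CPM in Col-0 (SD, n = 2) and 864 to 954 CPM in the mutant libraries, with log2 differences of -0.25 to -0.16 and adjusted p values of 0.0259 to 0.218. BIP1 made up 49.0% to 52.4% of the pair in every library. Neither BIP1 (adjusted p = 0.70), BIP2 (0.541) nor their sum (0.779) was shown to differ among the 8 mutants. The genes that followed the sum most closely were PMZ (r = 0.8426), CRT1b (r = 0.8288), which encodes a calreticulin of the same compartment, and eIF4E3 (r = 0.8102).

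BIP3 was rare and varied most. Its 2 libraries had 0.382 and 0.606 CPM in Col-0, 1.61 and 1.31 in athb25, 0.942 and 2.02 where labelled obp1, and 0.164 and 0.221 in smb, the latter from 3 and 7 counts. In athb15 it was at 0.258 and 0.328 CPM, and the libraries of the remaining 4 lines lay between 0.459 and 0.714 CPM. The athb25 libraries and those labelled obp1 were thus above all others, and those of smb below. Against Col-0 the log2 differences were 1.53 in athb25 (SE 0.369, adjusted p = 0.02, edgeR), 1.55 in the libraries labelled obp1 (SE 0.361, 0.0101) and -1.32 in smb (SE 0.562, 0.268), so none passed. In these 8 tests, 3 had an unadjusted p under 0.05, and DESeq2 called 0 and gave no adjusted p for 2. These counts have no share over all genes beside them. The call in the libraries labelled obp1 was gained with DESeq2 size factors (adjusted p = 0.00929, edgeR) and without their replicate 1 (0.00232), and BIP3 in athb25 passed without the filter on low counts (0.000864).

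Among the mutants BIP3 differed (adjusted p = 0.000335). It was higher than the mean of the other 7 in athb25 by 1.45 (SE 0.251, 0.00127) and where labelled obp1 by 1.48 (SE 0.239, 0.000495), and the value in smb was -1.80 (SE 0.423, 0.021). Its upstream window, printed above, was the one with 2 stress response elements, and a part of these in its level was not tested. The 17 genes of the endoplasmic reticulum list below had a median log2 difference from Col-0 of -0.10 in athb25 and -0.14 where labelled obp1. For BIP3, the 2 libraries labelled obp1 differed by more than those of any other line. Leaving out 1 library at a time moved their difference from Col-0 between 0.91 and 2.00.

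HSC70-1 ranged from 6122 to 7788 CPM and CPHSC70-1 from 968 to 1150 CPM. HSP70-15, an HSP110-like protein of the class that acts as an exchange factor for HSP70, ranged from 175 to 211 CPM. The Col-0 libraries were at 6359 and 6660 CPM, 989 and 985 CPM, and 191 and 211 CPM, within the spread of the mutant libraries except for the higher one of HSP70-15. None of the 3 genes passed against Col-0, with adjusted p values of 0.195 to 0.956 for HSC70-1, 0.136 to 0.998 for CPHSC70-1 and 0.158 to 0.988 for HSP70-15. At an unadjusted p under 0.05 there were 2, 1 and 2 of 8 differences, with no share over all genes beside them. DESeq2 called 0 for each of the 3 genes. They were not shown to differ among the mutants either (adjusted p = 0.18, 0.254 and 0.245), but HSC70-1 passed that test without the filter on low counts (0.00377).

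Because HSC70-1 dominated the 10 genes, their summed level ran from 8726 to 10459 CPM with Col-0 at 9154 and 9423, inside the range of the mutants. The sum without HSC70-1 was 2795 and 2764 CPM in Col-0 and 2484 to 2671 CPM in the mutants, so the Col-0 libraries were highest. HSC70-3 is part of this sum.

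Related chaperones and regulators were counted in lists, which were also chosen with earlier results of these data known. Of 7 other HSP70 superfamily genes tested out of 8, 2 tests of 56 were higher and 2 lower against Col-0 (7.14%, against 1.86% over all genes), and 3 genes differed among the mutants, as did 11.4% of all genes. These were HSP70T-2 and both mitochondrial members, MTHSC70-2 (adjusted p = 0.000151, edgeR) and mtHsc70-1 (0.00342), each 0.33 lower on the log2 scale in the libraries labelled obp1 (adjusted p = 0.00184 and 0.00369). The list's median log2 difference was -0.15 to 0.03 over the 8 lines, and that of all genes was -0.02 to 0.01.

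The HSP90 family, which receives clients from HSP70, had 8 lower and 1 higher of 56 tests, or 16.1% against 1.86% over all genes. Of its 7 genes, 2 differed among the mutants, against 11.4% of all genes. HSP81-2, HSP81-3 and Hsp81.4 held 1, 2 and 3 of the lower calls, and sequence shared among the HSP90 genes was not searched. The heat-inducible HSP90.1 differed most (adjusted p = 1.13e-06, edgeR), with a fall of 0.71 in the libraries labelled obp1 (0.000254) and a rise of 0.44 in vnd2 (0.0063). The mitochondrial Hsp89.1 was the second (0.000979). The libraries labelled obp1, in which 1.41% of all genes were called lower, held 5 of the 8 lower calls. The list's median log2 difference was below 0 in all 8 lines, at -0.33 to -0.07, as were those of the co-chaperones at -0.16 to -0.0018 and of the endoplasmic reticulum list at -0.16 to -0.03.

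The remaining lists were called at shares below or near the 1.86% of all genes, and few of their genes differed among the mutants, beside 11.4% of all genes. The 19 J-domain, exchange factor and linker co-chaperones had 1 lower call in 152 tests (0.658%), Hop3 in the libraries labelled obp1 (log2 fold change -0.62, adjusted p = 0.00529, edgeR), and MGE1 and AR192, nucleotide exchange factors of the mitochondrial type, differed among the mutants (0.000632 and 0.00184). The 17 genes of folding in the endoplasmic reticulum and the unfolded protein response had 1 call in 136 tests (0.735%), a rise of the stress sensor IRE1A in vnd2 by 0.41 (0.00164), and PDIL1-3, a protein disulfide isomerase, differed among the mutants (0.00198). The 12 heat shock factors and MBF1C had 2 calls in 96 tests (2.08%), both of HSFA9, the seed-specific heat shock factor. It rose in smb by 3.10 (SE 0.545, adjusted p = 0.00169, edgeR) and in vnd2 by 3.90 (SE 0.494, 3.61e-05). Its level was low, at a mean of 0.257 CPM in Col-0 and 0.0316 to 4.84 CPM over all libraries. HSFA9 (7.74e-06) and HSF3 (0.00505) differed among the mutants, and the list's median ran from -0.11 to 0.13. The 5 chloroplast import and stromal chaperones had 0 calls in 40 tests with edgeR and 0 with DESeq2, with 6 at an unadjusted p under 0.05, a median of 0.04 to 0.09, and 0 genes that differed among the mutants at either level. The count at an unadjusted p has no share over all genes beside it.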

How the data were processed

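Whole germinating seeds were sequenced from poly(A)-selected stranded libraries. The deposited table holds raw counts of reads per gene, made by the authors with Trim Galore 0.4.2, HISAT2 2.0.5 and featureCounts 1.5.1 on TAIR10, as the submitters' processing notes and the study's methods list them. The treatment of reads that match several genes and the strand setting are not given in the sources used here. Library totals were 18146206 to 33111743 counts. The deposited counts were analysed with edgeR 4.0.16 (limma 3.58.1, R 4.3.3). Genes were filtered with filterByExpr, libraries scaled by trimmed mean of M-values, and all 18 libraries fitted in a single quasi-likelihood model with genotype as the only factor (common biological coefficient of variation 5.87%). Adjusted p values are Benjamini-Hochberg over 19100 genes with a threshold of 0.01, and log2 CPM for correlations used a prior count of 2. Genes were tested against Col-0, for equality over the 8 mutants, and for each mutant against the mean of the other 7, without HSC70-3, whose levels chose it. The scripts were tested on simulated counts. DESeq2 1.42.0, other filters, scalings and thresholds, and fits without single libraries were tried as alternatives.

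The genes and lists were chosen with earlier results of these data known. The text names the 10 genes, of each list at most 4 genes that differed among the mutants with the smallest adjusted p, the 3 genes most similar to HSC70-3 and to the sum of BIP1 and BIP2, and overlapping genes. The genes similar to HSP70-5, and Hop3 and IRE1A, were named after their values were seen. Sequences were read from the RefSeq assembly TAIR10.1, in which 36868 of 37051 matched genes (99.5%) had the same coordinates as in the count table (Biopython 1.88). The libraries of a genotype never agreed within sampling noise.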

Additional observations from a re-analysis of the deposited data

Results flagged for a closer look

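Of the 9 genes tested, 4 had effects against Col-0 that differed between the mutants, as did 11.4% of all genes. This was a direct test of that difference, the edgeR quasi-likelihood F test over the 8 mutants. The adjusted p was 1.73e-05 for HSC70-2, whose log2 difference from Col-0 ran from -1.04 in athb25 to -0.28 in vnd2. It was 3.5e-05 for HSP70-4, from -0.61 in the libraries labelled obp1 to 0.09 in vnd2. It was 1.83e-06 for HSP70-5, from -0.11 in hat2 to 1.26 in vnd2, and 0.000335 for BIP3, from -1.32 in smb to 1.55 in the libraries labelled obp1. BIP3 rests on 3 to 62 counts per library.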

How the results depend on the processing

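The 13 calls against Col-0 became 6 when BIP1 and BIP2, and HSC70-1 and HSC70-2, were each counted together, and 24 at an adjusted p under 0.05. In this section shares over all genes are given only for the fits without whole lines. The other counts therefore cannot show a change particular to these genes. Leaving out 1 library at a time gave 7 to 15, with 7 without Col-0 replicate 1 and 8 without Col-0 replicate 2. The pooled row of HSC70-1 and HSC70-2 is nearly all HSC70-1, so the sign of HSC70-2 turned by construction, to 0.17 (athb25), 0.16 (lmi1), 0.13 (labelled obp1), 0.11 (hat2), 0.060 (athb15) and 0.0095 (labelled wrky14). Leaving out single libraries turned the sign of 14 small differences that passed no test. HSC70-1 ranged from -0.082 to 0.031 in smb, -0.068 to 0.033 in vnd2 and -0.047 to 0.087 where labelled wrky14. HSP70-4 in vnd2 ranged from -0.035 to 0.20, and HSP70-5 from -0.25 to 0.040 in hat2 and -0.023 to 0.14 in athb25. BIP3 ranged from -0.010 to 0.64 in vnd2 and -0.15 to 0.50 where labelled wrky14. HSP70-15 ranged from -0.13 to 0.0052 in athb15, -0.10 to 0.029 in hat2, -0.046 to 0.093 in smb, -0.077 to 0.060 in vnd2 and -0.059 to 0.071 where labelled wrky14. CPHSC70-1 in smb ranged from -0.0016 to 0.0089, and was -0.0034 with a mean of at least 50 counts and -0.0010 in the model of 4 libraries. HSP70-15 where labelled wrky14 was 0.00070 with DESeq2 size factors and 0.00022 with the DESeq2 test. The 4 genes that differed among the mutants passed in all 18 fits without a library.

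The replicate numbers did not pair the libraries: over 36 pairs of genotypes, deviations correlated at -0.163 to 0.194 (median -0.0097). With replicate as a block, 14 tests against Col-0 passed, 4 genes differed among the mutants and 12 tests against the other 7 mutants passed; the call gained was BIP3 where labelled obp1 (adjusted p = 0.00757, edgeR). BIP3 has no value at a mean of at least 50 counts, where 3 genes differed among the mutants. Without a filter on low counts 19 tests against Col-0 passed, as with DESeq2, and 5 genes differed among the mutants, HSC70-1 being added. The adjusted p among the mutants was then 1.95e-58 for HSP70-5 and 1.91e-23 for HSC70-2 (edgeR), against 1.83e-06 and 1.73e-05 in the main fit. Its p values are therefore not comparable with those of the main fit. Leaving out the vnd2 libraries, or those labelled obp1 and wrky14, was chosen after seeing the data. It left 13 and 10 calls against Col-0 in 63 and 54 tests, against 1.89% and 1.38% over all genes.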
